A study of Mus musculus with 5 samples.

Results

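A set of 10 genes whose products are largely restricted to pluripotent and germ cells was examined in ribosome profiling (RIBO-seq) data from mouse embryonic stem cells (mESCs). The set held Lin28a, Lin28b, Trim71, L1td1, Dppa2, Dppa3, Dppa4, Dppa5a, Utf1 and Tdgf1, and was defined by gene name. The deposited table lists 135276 transcripts, of which 20 are protein-coding transcripts of these 10 genes. For each gene the protein-coding transcript with the highest mean level was taken as its main transcript. All 10 main transcripts and 19 of the 20 transcripts passed the filter of 1 CPM (count scaled to the library total) in 1 or more libraries, as did 66972 transcripts in all.

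RIBO-seq counts the RNA fragments that ribosomes shield from nuclease, and so measures the association of RNAs with ribosomes, which for coding sequences is read as a measure of translation. The study profiled ribosomes after the pulldown in order to look at the association of long non-coding RNAs with ribosomes, and the comparison made here is between the pulldown and standard RIBO-seq for a set of coding genes. The cells were grown in serum with LIF on gelatin, and all 5 libraries are labelled untreated. In every library the cells received cycloheximide, which stalls elongating ribosomes, and RNase I (1.3 U, 45 min) removed unprotected RNA from the lysate in the presence of sBlock, a small molecule that holds the nascent peptide on the ribosome. Standard RIBO-seq (3 libraries) then collected all ribosomes by centrifugation through sucrose. AHARIBO RIBO-seq (2 libraries) instead linked biotin to nascent peptides containing AHA, a methionine analogue, and captured them on magnetic beads. The study describes the standard libraries as made from the input of the pulldown. The dose and time of AHA for these libraries are not given in the sources used here. Fragments of 25 to 35 nt were sequenced for both methods. Counts after removal of duplicate reads summed to between 6403651 and 11150527 per library, and 3 counts, taken as the smallest amount that can be seen, corresponded to 0.262 to 0.476 CPM. The cells carried the markers of their label. All 10 mESC markers examined, led by Pou5f1, were above 1 CPM in every library, and the 8 fibroblast markers summed to only 5.63 to 6.5 CPM in standard and 5.77 to 5.89 CPM in AHARIBO RIBO-seq, with Dcn and Lum at 0. Markers of differentiated lineages summed to 49 to 50.9 CPM in standard and 44.1 to 45.4 CPM in AHARIBO RIBO-seq, and most of this sum was the neuronal tubulin Tubb3, at 36.5 ± 0.214 CPM (SD, n = 3) and 32.5 ± 1.19 CPM (SD, n = 2). Of the mESC markers 4 differed between the methods in the test described below, with Sox2, Klf4 and Klf2 lower and Tfcp2l1 higher in AHARIBO RIBO-seq, where 5.13% of main coding transcripts were called. Without adjustment 6 of the 10 had p under 0.05 in edgeR, against 18.7% of all transcripts. The median log2 fold change of the 10 (AHARIBO over standard RIBO-seq) was −0.17. DESeq2 called only Klf2 of the 10, beside 1.44% of the transcripts for which it gave an adjusted p. The edgeR calls of Sox2, Klf4 and Tfcp2l1 were also lost with a replicate block, without standard replicate 1 and without AHARIBO replicate 1 (adjusted p of 0.396, 0.134 and 0.333 in the last), and all 4 with transcripts summed per gene. Their part in the results was not tested.

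The genes belong to a few well known circuits of pluripotency. Lin28a and Lin28b bind precursors of the let-7 microRNAs and block their maturation, whereas mature let-7, which accumulates on differentiation, represses Lin28a, Lin28b and Trim71 in return. Dppa2 and Dppa4 act together on chromatin and activate genes of the cleavage-stage embryo, Dppa3 shields DNA from changes in methylation, and Utf1 is a chromatin protein of undifferentiated cells. Tdgf1 (Cripto) sits on the cell surface as the coreceptor of the growth factor Nodal.

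The start of each coding sequence is shown for Utf1 and Trim71, which were called between the methods, for Lin28a, of which a short transcript was called, and for Dppa5a, the gene with the highest level, because AHA can replace the methionine of any in-frame ATG codon. Capitals mark the in-frame ATG codons. The study states that most proteins lose the first methionine during translation, so AHA at the first ATG need not stay on the peptide. Sequences and gene models are from GRCm38.
Utf1 (chr7:139943874-139943903, plus strand): ATGctgcttcgtccccggaggttgcccgct
Trim71 (chr9:114563088-114563117, minus strand): ATGgcttcgttcccggagaccgacttccag
Lin28a (chr4:134018712-134018741, minus strand): ATGggctcggtgtccaaccagcagtttgca
Dppa5a (chr9:78368070-78368099, minus strand): ATGATGgtgaccctcgtgacccgtaaagat
Dppa5a opened with a pair of adjacent ATG codons and had 7 in 118 codons, the densest of the 10 genes at 5.93 per 100 codons. Utf1 was the sparsest, with 4 in 339 codons (1.18 per 100), and its last ATG lay at codon 144. Trim71 had 11 in 855 codons, the last at codon 828, and Lin28a had 6 in 209. Tdgf1 had 4 in 171 codons, of which the second lay only at codon 138. The median coding gene had 10 in-frame ATG codons in 390 codons.

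The let-7 arm of the circuit can be read from the sequences as well. The let-7 microRNAs share the seed GAGGUAG (bases 2 to 8), as in let-7a, whose seed is in capitals, and the complementary CTACCTC, in capitals in the sites, was searched for on the transcript strand of 3′ UTRs.
let-7a (mmu-let-7a-5p, RefSeq, GRCm38.p6): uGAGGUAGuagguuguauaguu
Lin28a site (chr4:134005189-134005211, minus strand): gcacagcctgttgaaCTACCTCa
Lin28b site (chr10:45381022-45381044, minus strand): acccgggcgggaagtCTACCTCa
Trim71 site (chr9:114512376-114512398, minus strand): agtgataatttctatCTACCTCa
Lin28a held 2 such matches in a 3′ UTR of 2775 nt, Lin28b 4 in 4445 nt and Trim71 4 in 5512 nt. The other 7 genes held none. Over all coding genes with a 3′ UTR, 8.38% held at least 1 match (1727 of 20615), and the median 3′ UTR was 866 nt long. These matches are a description of the sequence, and the activity of let-7 was not measured.

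Ribosome footprints on the 10 genes spanned a 228-fold range per length of coding sequence. The range depended on the measure, and the medians ran from 1.39 to 1160 CPM per kb of coding sequence with duplicate reads kept and from 0.389 to 322 CPM per kb of whole transcript. Per kb of coding sequence, without duplicates, 8 of the genes lay above the median coding gene, and Lin28b and Dppa3 lay below it. Levels are given here as CPM per kb of coding sequence, as the lowest, median and highest of the 5 libraries, and the median over 12367 coding genes was 6.88. Dppa5a, a small RNA-binding protein of the KH family, was highest at 485, 563 and 627, above 99.9% of coding genes. Tdgf1 followed at 262, 275 and 281, and Utf1 at 141, 184 and 192. Lin28a stood at 69.8, 77.8 and 88.8, and L1td1, an RNA-binding protein derived from a LINE-1 element, at 63, 67 and 73.3. These 5 genes lay above 93.3% or more of coding genes. Trim71 (39.2, 44.8 and 53.1), Dppa4 (40.4, 44.7 and 47.6) and Dppa2 (41.7, 43.2 and 44.3) formed a group at nearly one level. Lin28b (1.17, 2.58 and 2.99) and Dppa3 (1.72, 2.47 and 3.5) lay below the median gene, above 27.7% and 26.9% of coding genes. The ranges of neighbours in this order overlapped for Lin28a and L1td1, for Trim71 and Dppa4, for Dppa4 and Dppa2, and for Lin28b and Dppa3, so the order within these pairs is not settled. The order also depended on the measure. Utf1 stood above Tdgf1 per kb of whole transcript and in CPM, and Lin28a moved from the fourth place to the seventh per kb of whole transcript. The median of Lin28a was thus 30.1 times that of its paralogue Lin28b. The genes closest to Dppa5a in level were Eef1a1, Tmsb10 and Ptma, and those closest to Tdgf1 were Tmsb4x, Prdx1 and Rps4x, all abundant housekeeping products, with root mean square differences of 0.0456 to 0.0927 on the log2 scale over 5 libraries. The main transcripts of the 10 genes together took 0.239% to 0.245% of the reads in each library when 1 transcript per gene was summed.

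**Figure D1:**
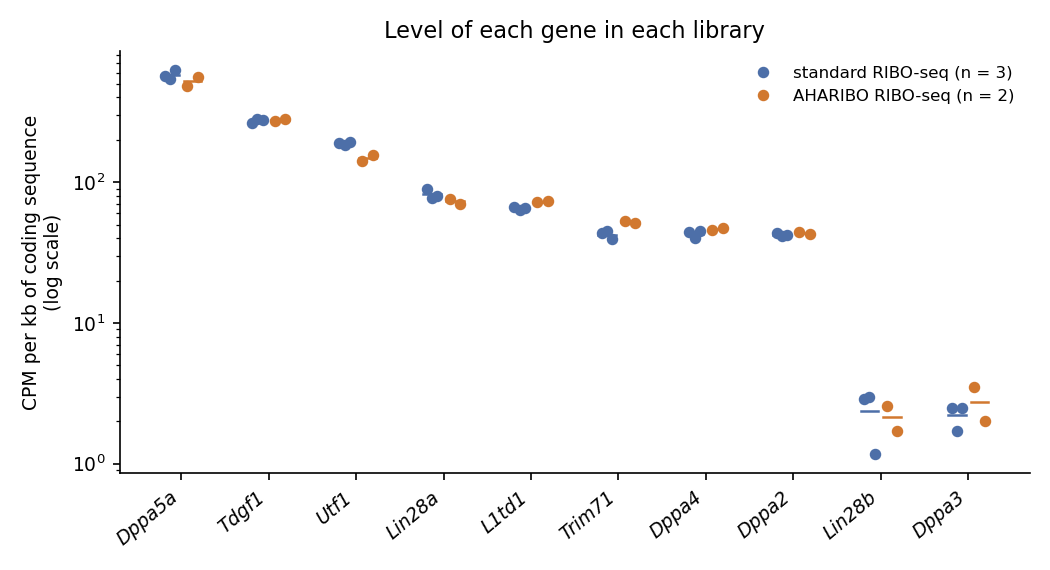
Level of the 10 genes in CPM per kb of coding sequence (log axis), in the 3 standard and 2 AHARIBO RIBO-seq libraries. Each point is a library and each short line the mean of a method. Dppa5a is highest in every library, and Lin28b and Dppa3 stay at or below 3.5 CPM per kb.

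Between the methods, 2 of the 10 genes were called as different by edgeR's test. Trim71 was 1.23-fold higher and Utf1 1.27-fold lower in AHARIBO RIBO-seq. All 66972 transcripts entered 1 fit of edgeR's quasi-likelihood test, and a transcript was called at a Benjamini-Hochberg adjusted p under 0.05. Of all transcripts 4.51% were called, 2.27% as higher and 2.24% as lower in AHARIBO RIBO-seq, and of the main coding transcripts 5.13% were called, 2.6% as higher and 2.53% as lower. Without adjustment, 4 of the 10 genes had p under 0.05, against 18.7% of all transcripts. The libraries of the 2 methods did not overlap for 5 of the 10 genes, with AHARIBO RIBO-seq above for Trim71, L1td1 and Dppa4 and below for Utf1 and Lin28a. Over all transcripts 33.8% showed no overlap, 17.3% with the AHARIBO libraries above and 16.5% with them below. DESeq2 called 1 of the 10 genes, Utf1, and 1.44% of the transcripts for which it gave an adjusted p. The median log2 fold change (AHARIBO over standard RIBO-seq) of the 10 genes was 0.03, and that of all transcripts was 0.002.

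**Figure D2:**
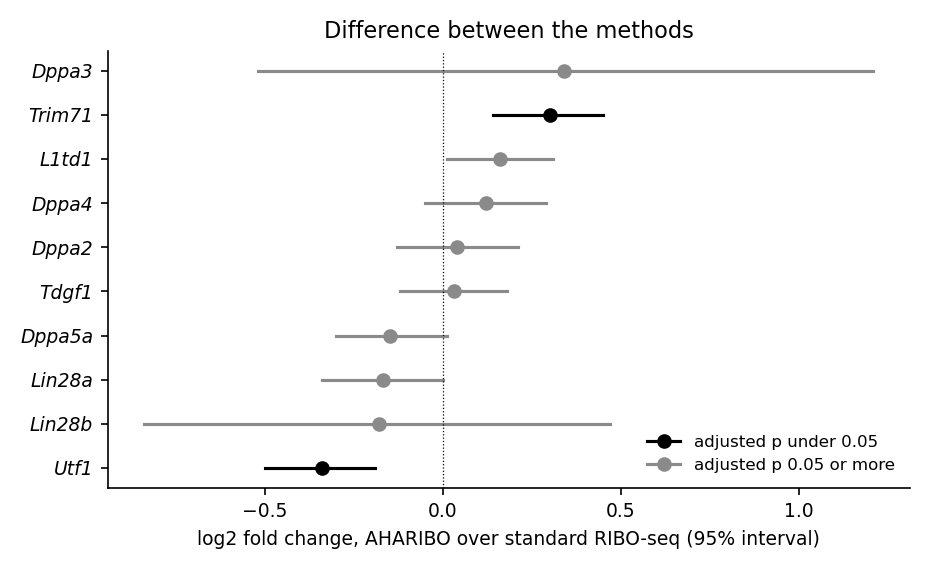
Log2 fold change of each gene between the methods, AHARIBO over standard RIBO-seq, with its 95% interval from edgeR (3 against 2 libraries). Utf1 lies below 0 and Trim71 above 0 with an adjusted p under 0.05, and the intervals of Lin28b and Dppa3 are the widest.

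Among the RNA-binding proteins, Trim71 rose and the other members did not pass the test. Trim71 (ENSMUST00000111816.2) is a large protein that binds and silences messenger RNAs. It had 111, 115 and 100 CPM in standard RIBO-seq replicates 1 to 3 and 136 and 132 CPM in AHARIBO RIBO-seq replicates 1 and 2. Both AHARIBO libraries lay above all standard libraries, with a mean of 134 ± 2.77 CPM (SD, n = 2), and the standard libraries averaged 109 ± 7.57 CPM (SD, n = 3). The difference was 1.23-fold, a log2 fold change of 0.30 (SE 0.08), with an adjusted p of 0.0173 by edgeR's quasi-likelihood test. This edgeR call was lost with DESeq2 (adjusted p = 0.0833), with duplicate reads kept (0.183), with transcripts summed per gene (0.133), with a replicate block (0.246), and without standard replicate 1 (0.096), standard replicate 3 (0.0993) or AHARIBO replicate 1 (0.164). Without an AHARIBO replicate, here and in every such fit, that method has 1 library, which is assumed to vary as the standard libraries do. No other transcript of Trim71 is listed, so summing left its counts unchanged, with a log2 fold change of 0.30, and changed only the set of features in the fit. L1td1 followed the same direction, with 157, 148 and 153 CPM in standard and 169 and 172 CPM in AHARIBO RIBO-seq. Its libraries did not overlap, but its log2 fold change of 0.16 (SE 0.08) had an edgeR adjusted p of 0.234.

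Lin28a, the more abundant of the Lin28 paralogues, had 55.7, 48.8 and 50.1 CPM in standard and 47.7 and 43.7 CPM in AHARIBO RIBO-seq. The AHARIBO libraries lay just below the lowest standard library, and the log2 fold change was −0.17 (SE 0.09, edgeR adjusted p = 0.266). Lin28b rested on few reads, from 6 counts in standard replicate 3 to 24 in AHARIBO replicate 1. Its level was 2.35, 2.43 and 0.952 CPM in standard and 2.1 and 1.4 CPM in AHARIBO RIBO-seq. These ranges overlapped, and the 95% interval of its log2 fold change ran from −0.84 to 0.47, so no difference was detected, and smaller differences of either sign lie within the interval. A lower count in a library of bulk cells does not tell fewer cells from fewer footprints per cell.

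The machinery around Lin28 and let-7 formed a list of 15 genes, each tested singly in the same fit. Of these, 3 were higher, 1 was lower and 11 did not pass, beside 2.6% of main coding transcripts called higher and 2.53% called lower. The median log2 fold change was 0.09. Dicer1, which cuts the let-7 precursor, went from 25.7 ± 1.01 CPM (SD, n = 3) to 33.2 ± 2.77 CPM (SD, n = 2), which is 0.37 on the log2 scale, with an edgeR adjusted p of 0.0126. Tut4, which adds uridines to the precursor bound by Lin28a, rose by 0.34 (adjusted p = 0.0361), and Ago2, which holds the mature microRNA, by 0.27 (adjusted p = 0.0443), in the same edgeR test. Khsrp, an RNA-binding protein that aids let-7 processing and the highest gene of the list in the standard libraries, was lower, at 163 ± 3.34 CPM in standard and 137 ± 7.22 CPM in AHARIBO RIBO-seq (log2 fold change −0.25, edgeR adjusted p = 0.0434). In the AHARIBO libraries Igf2bp1 stood above it. Without adjustment 5 of the 15 had p under 0.05 in edgeR, against 18.7% of all transcripts. DESeq2 gave no adjusted p for the genes of the list with the lowest CPM, and called 1.44% of the transcripts for which it gave one. DESeq2 called none of the 15, and neither did edgeR without AHARIBO replicate 1. The call of Khsrp held with no filter (edgeR adjusted p = 0.0293) and without AHARIBO replicate 2 (0.0348), and was lost under every other alternative run on it, with adjusted p of 0.0578 to 0.427. All 4 calls were lost with duplicate reads kept and with transcripts summed per gene, and with a replicate block Dicer1 alone was called. Ago2 was also lost with TMM after the filter (edgeR adjusted p = 0.0602). Dicer1 was the only one of the 4 still called without standard replicate 1 or 3, and without standard replicate 2 Dicer1 and Tut4 were. A list of 15 known targets of let-7 includes the growth regulators Myc, Mycn and Hmga1, and shares Igf2bp1 with the list of the machinery. Hmga1 and Hmga1b, both in the list of targets, had nearly equal counts in every library and may hold the same reads. None of the targets was called by edgeR, which called 5.13% of main coding transcripts. DESeq2 called none either, but gave no adjusted p for the targets with the lowest CPM. In edgeR 3 had an unadjusted p under 0.05, against 18.7% of all transcripts, and the median log2 fold change of the targets was −0.10. The highest, Igf2bp1, had 138 ± 4.81 CPM in standard and 147 ± 0.958 CPM in AHARIBO RIBO-seq (log2 fold change 0.09, edgeR adjusted p = 0.559). Cdc34, a ubiquitin-conjugating enzyme, was called with duplicate reads kept and without standard replicate 2, and Mycn without AHARIBO replicate 2.

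None of the 4 Dppa genes passed the test between the methods. Dppa4 had 39.1, 35.9 and 39.7 CPM in standard and 40.8 and 42.2 CPM in AHARIBO RIBO-seq. Its partner Dppa2 had 39.1, 37.6 and 38.4 CPM in standard and 40 and 39 CPM in AHARIBO RIBO-seq. Per length of coding sequence the pair stood at nearly equal levels, and the log2 fold changes were 0.12 (SE 0.09) for Dppa4 and 0.04 (SE 0.09) for Dppa2, with edgeR adjusted p of 0.476 and 0.846. The 95% intervals ran from −0.13 to 0.21 for Dppa2 and from −0.05 to 0.29 for Dppa4. Dppa5a had 202, 192 and 222 CPM in standard and 172 and 199 CPM in AHARIBO RIBO-seq, with overlapping ranges and a log2 fold change of −0.15 (SE 0.08, edgeR adjusted p = 0.326). Dppa3 rested on 7 to 18 counts per library, at 1.12, 0.773 and 1.11 CPM in standard and 1.57 and 0.899 CPM in AHARIBO RIBO-seq. Its log2 fold change of 0.34 had an SE of 0.44 and an edgeR adjusted p of 0.742.

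The chromatin genes linked to the Dppa proteins formed a list, each tested singly in the same fit, in which 12 of 14 genes passed the filter. Tet1, which oxidises methylated DNA, was the 1 gene called, beside 5.13% of main coding transcripts, and without AHARIBO replicate 2 its relative Tet2 was called as well. The nuclear export receptor Xpo1 was called with plain library sizes, with no filter and with 1 transcript per gene. Without adjustment 4 of the 12 had p under 0.05 in edgeR, against 18.7% of all transcripts. Tet1 had 83.6, 90.3 and 78.2 CPM in standard and 125 and 111 CPM in AHARIBO RIBO-seq, so both AHARIBO libraries stood clear of the standard ones. The log2 fold change was 0.49, with an adjusted p of 6.26e-05 by edgeR and 0.00065 by DESeq2. The edgeR call was lost with transcripts summed per gene (adjusted p = 0.0663). Uhrf1, the protein that Dppa3 keeps from recruiting the DNA methyltransferase, was the highest of the list in CPM, at 205 ± 3.41 CPM in standard and 190 ± 11 CPM in AHARIBO RIBO-seq (log2 fold change −0.11, edgeR adjusted p = 0.453). The median log2 fold change of the list was 0.11. The Zscan4 genes of the cleavage-stage programme were present at 5.06 to 6.2 CPM in standard and 6.53 to 8.39 CPM in AHARIBO RIBO-seq, means that did not pass the test, whereas Duxf3 and Zfp352 were under the filter. Zscan4c, Zscan4d and Zscan4f are near-identical copies, and their counts may hold the same reads. Zscan4c and Zscan4f are among the 4 genes with an unadjusted p under 0.05, so these 4 may not be separate measurements.

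Utf1 had the smallest adjusted p of the 10 genes. Utf1 (ENSMUST00000168457.2, chr7:139943789-139945112, plus strand, 2 exons) had 193, 187 and 195 CPM in standard and 143 and 159 CPM in AHARIBO RIBO-seq. The highest AHARIBO library was well under the lowest standard library, and the means were 192 ± 4.14 CPM (SD, n = 3) in standard and 151 ± 11.3 CPM (SD, n = 2) in the pulldown. The level was 1.27-fold lower in AHARIBO RIBO-seq, a log2 fold change of −0.34 (SE 0.08), with an adjusted p of 0.00484 by edgeR and 0.0155 by DESeq2. The edgeR call was lost without standard replicate 1 (adjusted p = 0.0671) or AHARIBO replicate 1 (0.179), with a replicate block (0.0971) and with transcripts summed per gene (0.0977). No other transcript of Utf1 is listed, so summing left its counts unchanged, and its log2 fold change stayed at −0.34. What changed was the set of features in the fit. No 30 nt window of the Utf1 transcript occurs in a transcript of another gene.

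Tdgf1 was not called. It had 134, 143 and 141 CPM in standard and 140 and 144 CPM in AHARIBO RIBO-seq, ranges that overlapped. The log2 fold change was 0.03 with a 95% interval from −0.12 to 0.18 (edgeR adjusted p = 0.903). Of 18 genes of the Nodal pathway around it, 15 passed the filter, with a median log2 fold change of −0.04. None was called by edgeR, which called 5.13% of main coding transcripts, and 2 had an unadjusted p under 0.05 in edgeR, against 18.7% of all transcripts. DESeq2 called none either, but gave no adjusted p for those of the 15 with the lowest CPM. The highest was Lefty1, a secreted inhibitor of Nodal, at 53.8 ± 3.71 CPM in standard and 47.9 ± 2.69 CPM in AHARIBO RIBO-seq (log2 fold change −0.17, edgeR adjusted p = 0.273). Nodal itself had 32.5 ± 1.97 CPM and 28.1 ± 1.1 CPM, with an edgeR adjusted p of 0.174.

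Among 15 other proteins restricted to stem cells, 1 was higher, 2 were lower and 12 did not pass, beside 2.6% of main coding transcripts called higher and 2.53% called lower, and the median log2 fold change was −0.07. Rex2, a zinc finger protein, rose from 30.5 ± 2.48 CPM in the 3 standard libraries to 40.7 ± 3.13 CPM in the 2 AHARIBO libraries (log2 fold change 0.41, edgeR adjusted p = 0.00375). Zfp296, another zinc finger protein, fell by 0.38 on the log2 scale (edgeR adjusted p = 0.00881) and the orphan nuclear receptor Nr0b1 by 0.26 (edgeR adjusted p = 0.0396). The call of Nr0b1 held with no filter (edgeR adjusted p = 0.0277) and without AHARIBO replicate 2 (0.044), and was lost under every other alternative run on it, with adjusted p of 0.0508 to 0.37. With duplicate reads kept the call of Zfp296 was lost (edgeR adjusted p = 0.0598), and with transcripts summed per gene those of Rex2 (0.133) and Zfp296 (0.152). Without adjustment 4 of the 15 had p under 0.05 in edgeR, against 18.7% of all transcripts. The highest in the standard libraries, Sall4, a zinc finger factor of pluripotency, had 186 ± 3.12 CPM and 171 ± 12.3 CPM, with an edgeR adjusted p of 0.417. DESeq2 called none of the 15, nor did edgeR without AHARIBO replicate 1, and without standard replicate 1 Rex2 alone was called.

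The coding lengths of the genes were set beside those of all coding genes. Trim71 and L1td1, the longest of the 10 at 855 and 782 codons, had log2 fold changes of 0.30 and 0.16, and Dppa5a and Lin28a, at 118 and 209 codons, had −0.15 and −0.17. The genes between these 2 in length had 0.34 (SE 0.44) for Dppa3 at 150 codons and 0.03 (SE 0.08) for Tdgf1 at 171. Their 95% intervals held both signs, so neither showed a direction. Of these 6 genes only Trim71 was called. Over 12229 coding genes the median log2 fold change was −0.102 up to 200 codons, −0.0492 above that and up to 400, 0.0104 above that and up to 800, and 0.0989 over 800 codons. In the same classes 0.465%, 1.01%, 2.04% and 6.94% of genes were called higher in AHARIBO RIBO-seq, and 8.84%, 2.73%, 1.12% and 0.0373% were called lower. Utf1, at 339 codons, therefore belonged to a class in which 2.73% of genes were called lower, and Trim71 to one in which 6.94% were called higher. Tdgf1 and Dppa3 stood above the median of their class, as did Dppa2 and Dppa4. By number of in-frame ATG codons the medians were −0.101 for up to 3, −0.0382 for 4 to 10 and 0.0582 for more than 10. Length and number of ATG codons were not separated, and their parts in the difference were not tested.

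**Figure D3:**
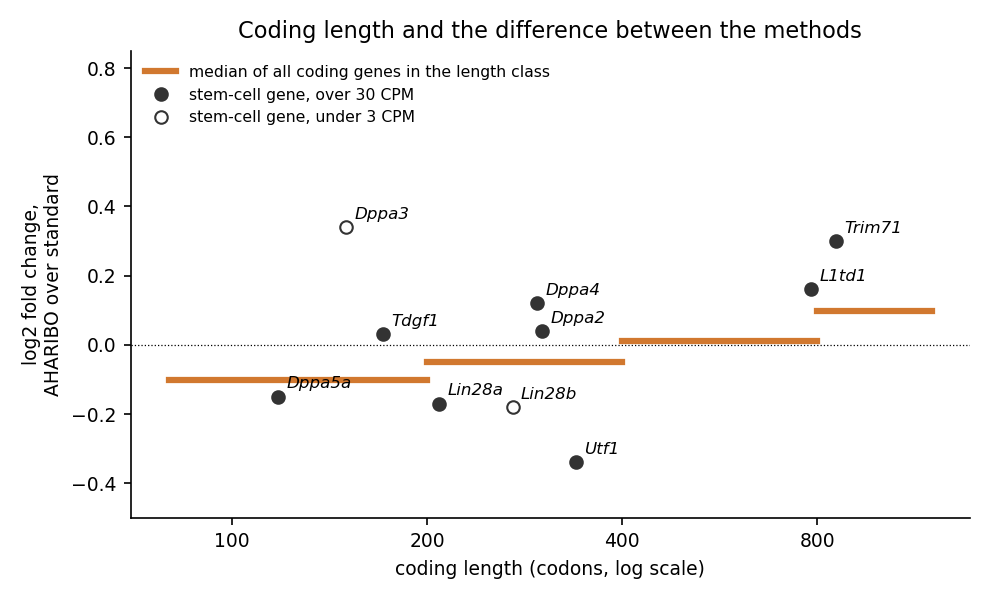
Log2 fold change between the methods against coding length in codons (log axis). Points are the 10 genes, open where the level was under 3 CPM, and bars are the medians of all coding genes in 4 length classes, of which the shortest and the longest are open-ended. Trim71 and L1td1 lie above the bars near them, and Utf1 lies furthest below.

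Shorter transcripts of the same genes give a rough view of different parts of the coding sequence. For Tdgf1, a transcript (ENSMUST00000197460.4) that spans the whole coding sequence took 96.1%, 94.8% and 96% of the main count in standard and 94.1% and 94.6% in AHARIBO RIBO-seq, and a shorter one took 63.5% to 67.3%, so the same reads were counted on more than one transcript. The count of a shorter transcript was therefore taken as a share of the main transcript's count, a share that also holds any reads on sequence outside the main transcript. This measure was chosen after the data were seen. Of the 30 nt windows of the 2 Lin28a transcripts described next, 71% and 64.7% lay in the main transcript, under the 80% asked of the others. For Lin28a, a short transcript (ENSMUST00000176897.1) that covers the coding sequence from 4.47% to 60% of its length took 44.3%, 41.2% and 44% of the main count in standard RIBO-seq and 36.9% and 38.4% in AHARIBO RIBO-seq. The AHARIBO share was lower in both libraries, with a mean difference of −5.52 percentage points. In the test of single transcripts it fell from 22.3 ± 2.29 CPM (SD, n = 3) to 17.2 ± 0.572 CPM (SD, n = 2), or by 0.37 on the log2 scale, with an edgeR adjusted p of 0.035. That edgeR call was lost with DESeq2 (adjusted p = 0.251), with library sizes used without TMM (0.0673), with a replicate block (0.0536), and without standard replicate 1 (0.263) or 3 (0.0597) or AHARIBO replicate 1 (0.176) or 2 (0.12). A Lin28a transcript covering 36% to 78.3% of the coding sequence had overlapping shares, 17.5%, 17.2% and 18.4% in standard and 17.4% and 22.4% in AHARIBO RIBO-seq.

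L1td1 and Tdgf1 gave smaller differences of the same direction. An L1td1 transcript that ends at 18.8% of the coding sequence took 36.7%, 38.5% and 37.1% of the main count in standard and 35.1% and 35% in AHARIBO RIBO-seq. A still shorter one, ending at 15.3%, took 21.2%, 21.1% and 22% in standard and 19.4% and 20.6% in AHARIBO RIBO-seq. In both the AHARIBO libraries lay below all standard ones, but the 2 transcripts share most of their reads. For Tdgf1, a transcript ending at 72.5% of the coding sequence took 66.2%, 65.7% and 67.3% in standard and 63.5% and 64.6% in AHARIBO RIBO-seq, a mean difference of −2.33 points. The Tdgf1 transcript that spans the whole coding sequence also had a lower share in both AHARIBO libraries, with a mean difference of −1.24 points. The same share was taken over all 1074 coding genes with a shorter transcript that runs from the start codon or before it to at most 75% of the coding sequence. The Lin28a transcript, which begins inside the coding sequence, is not of this kind. In these genes the AHARIBO share lay below all standard libraries in 36.2% and above them in 5.87%, with a median difference of −2.29 percentage points. For 492 genes with a shorter transcript that begins at 25% or later and runs to the stop codon, the AHARIBO share lay below in 5.08% and above in 33.3%, with a median difference of 1.64 points. A shorter Dppa4 transcript that covers the whole coding sequence had overlapping shares, 82.4% to 85.5% in standard and 82.4% to 85.8% in AHARIBO RIBO-seq, as did an L1td1 transcript that runs from the start to the stop codon, 84% to 86% and 85.8% to 86.1%.

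**Figure D4:**
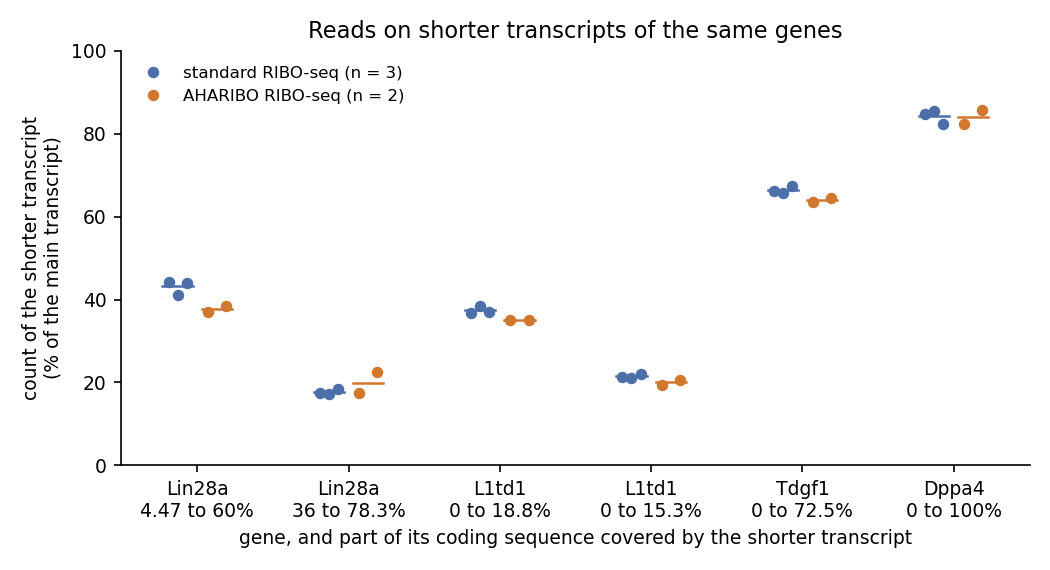
Count of a shorter transcript as a percentage of the count of the main transcript, by gene and by the part of the coding sequence that the shorter transcript covers. Points are libraries and short lines are means. The AHARIBO libraries lie below the standard libraries for the Lin28a transcript of 4.47% to 60%, for both L1td1 transcripts and for the Tdgf1 transcript that ends at 72.5%, and overlap with them for the other Lin28a transcript and for Dppa4.

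Removal of duplicate reads weighed on the genes unequally. In whole libraries 43.3% to 47.7% of the reads were removed. Dppa5a lost 72.6%, 72.6% and 68.8% in standard and 79.9% and 72.9% in AHARIBO RIBO-seq, the most of the 10 genes, and Trim71 lost 13.4% to 19.7%. Between these stood Tdgf1 (44.3% to 57.3%), Utf1 (40.5% to 47.3%), L1td1 (25.9% to 37.9%) and Lin28a (25.3% to 30.3%). Lin28b and Dppa3, with few counts, lost 0% to 14.3%. Dppa5a has only 354 nt of coding sequence, and its count after removal moved between 1399 and 1997 while its count before removal moved between 4481 and 9738. With duplicates kept its median level was 1160 in place of 563 CPM per kb of coding sequence, and its log2 fold change turned from −0.15 to 0.13 (edgeR adjusted p = 0.353). Whether the reads carried molecular identifiers is not given in the sources used here.

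**Figure D5:**
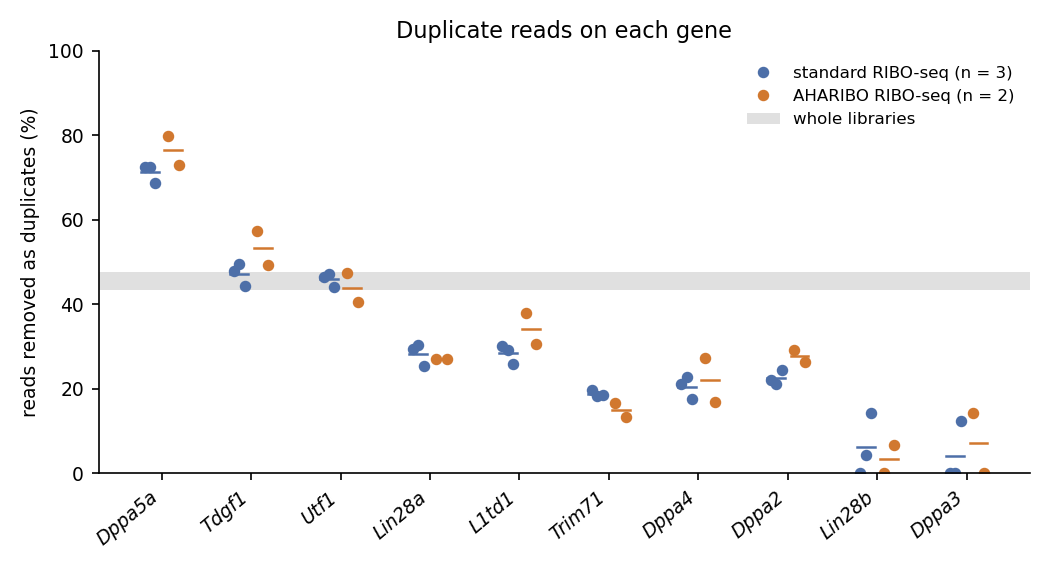
Share of reads removed as duplicates on each gene, in percent, by library. The grey band is the range over whole libraries, 43.3% to 47.7%. Dppa5a lies above the band in every library, and Trim71, Lin28a, L1td1, Dppa2, Dppa4, Lin28b and Dppa3 lie below it.

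Several of the genes have pseudogene copies in the genome that share their sequence. Of the 30 nt windows of the main transcript, 58.1% occurred in transcripts of other genes for Dppa5a, 44.7% for Dppa4, 42.4% for Dppa2, 32.6% for Dppa3 and 17.6% for Tdgf1. Over its transcripts the coding gene Pigp matched Dppa5a windows 139 times, with a window counted again in each transcript. The pseudogenes Dppa5b and Dppa5c had identical counts in all 5 libraries, from 472 in standard replicate 3 to 670 in AHARIBO replicate 2. The Tdgf1 pseudogene Tdgf1-ps1 had 764, 793 and 585 counts in standard and 888 and 868 in AHARIBO RIBO-seq, beside 1198, 1297, 889, 1596 and 1445 on Tdgf1 itself. How the reads divide between a gene and its copies could not be resolved from the counts. The values of Dppa2, Dppa3, Dppa4, Dppa5a and Tdgf1 are uncertain to this extent. L1td1 shared 7.42% of its windows, Lin28b 0.596% and Trim71 0.0645%, and Lin28a and Utf1 shared none.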

How the data were processed

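Per the authors' methods, the tools were Trimmomatic 0.36 for trimming and STAR for alignment, with Gencode M17 transcripts as the target after a filter against rRNA and tRNA, and only sense reads counted. They deposited raw counts per transcript, with duplicates removed (used here) and kept. How reads matching several transcripts were counted is not given in the sources used here. The number of per-sample columns not used was 0. Coding sequences came from Gencode M21 (GRCm38), which held 99.8% of the identifiers. The Dppa4 transcript is 1534 nt long in the deposited table and 1479 nt in M21.

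CPM used TMM factors over all transcripts (edgeR 4.0.16, R 4.3.3). Transcripts reaching 1 CPM in any library entered edgeR's quasi-likelihood test, 3 standard against 2 AHARIBO libraries, with Benjamini-Hochberg adjustment over 66972 transcripts, and with DESeq2 1.42.0 as an alternative. Both were run on simulated independent counts with changes larger than those called among the 10 genes, which does not test such small differences. Standard errors are approximate. The libraries are biological replicates per the labels. Their counts differed by more than sampling noise in every pair within a method, least for standard replicates 1 and 2 (chi-square per degree of freedom of 1.18, against 1.65 to 2.51 in the other pairs). A legend of the study gives fewer replicates for standard RIBO-seq than the labels do, so whether all 3 standard libraries are independent cultures is not settled here, and p-values measure the spread between these libraries. The 10 genes and all lists were chosen with earlier results of these data known. Igf2bp1, Zfp42, Sall4, Fgf4 and Gdf3 stand in more than one list. Named were the 10 genes, the highest and every called gene of each list, and the 3 genes nearest in level to the highest pair. The highest fibroblast marker was not named. Myc, Mycn, Hmga1, Hmga1b, Cdc34, Nodal, Tet2, Xpo1, Fgf4, Tubb3, Dcn, Lum, Pigp, the pseudogenes, Duxf3, Zfp352 and the Zscan4 genes were named after their values were seen. Shorter transcripts were compared by their share of the main count where they had at least 50 counts and 80% of their 30 nt windows lay in the main transcript, an exception being the Lin28a transcripts, with 71% and 64.7%. Floors and intervals of counts cover counting error only.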

Additional observations from a re-analysis of the deposited data

How the results depend on the processing

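With 3021 transcripts called in all, DESeq2 called 272, 1 transcript per gene 956, protein-coding transcripts summed per gene 28, and a log2 fold change over 1.5 with an adjusted p of 0.01 or less 105. Leaving out 1 library gave 510 to 3829, with 510 without AHARIBO replicate 1, 1173 without standard replicate 1 and 1815 without standard replicate 3. The 510 and the 3829 each come from 1 AHARIBO library, assumed to vary as the standard libraries do. Of the 10 genes, 2 were called, against 1 with DESeq2 (Utf1), 1 with duplicates kept (Utf1), 0 with transcripts summed per gene and 0 at the stricter threshold, and 0 to 2 without 1 library. DESeq2 gave no adjusted p for 2 of them, Lin28b and Dppa3. With the replicate number as a block 1792 transcripts, 0 of the 10 genes and 1 of the let-7 machinery were called. The numbers are not stated to pair the libraries, and the differences between replicates 1 and 2 correlated at −0.152 across 22901 transcripts.

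Of the let-7 machinery 4 genes were called, against 0 with DESeq2, 0 with duplicates kept, 0 with summed transcripts, 0 at the stricter threshold, 2 with TMM after the filter, and 0 to 4 without 1 library. Of the let-7 targets 0 were called, against 1 with duplicates kept and 0 to 1 without 1 library. Of the chromatin list 1 was called, against 2 with plain library sizes, 2 with no filter, 2 with 1 transcript per gene, 0 with summed transcripts, 0 at the stricter threshold, and 1 to 2 without 1 library. Of the other stem-cell proteins 3 were called, against 0 with DESeq2, 1 with duplicates kept, 0 with summed transcripts, 0 at the stricter threshold, and 0 to 3 without 1 library, where without standard replicate 3 Fgf4 was called and Nr0b1 was not.

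The median level over the 10 genes was 55.5 CPM per kb of coding sequence, 22.8 per kb of transcript, 175 with transcripts summed per gene and 42.4 with duplicates kept. The log2 fold changes of the 10 genes were recomputed 137 times, of which 120 kept direction and side of the threshold, 11 lost a call and 6 changed sign. None of the 6 was of a called gene, and all 11 losses were of the called genes Trim71 and Utf1. The other genes had no call to lose, so the 120 do not measure how stable the calls are. Of 236 such values for the other genes and the short Lin28a transcript, 158 stayed, 78 lost a call and 0 changed sign. Igf2bp1, Lefty1, Uhrf1 and Sall4, which are counted here, had no call to lose. Dppa5a turned to 0.13 with duplicates kept, Dppa3 to −0.14 without AHARIBO replicate 1, Tdgf1 to −0.00 without standard replicate 1 and with summed transcripts, and Lin28b to 0.00 without standard replicate 2 and 0.06 without AHARIBO replicate 2. Without 1 library Lin28b ran from −0.52 to 0.06, Dppa3 from −0.14 to 0.67 and Tdgf1 from −0.00 to 0.05. The cause was not tested. Lin28b and Dppa3 had at most 24 and 18 counts in a library, which limits the precision of their values.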
